A study of Bos taurus with 56 samples.

Results

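Glycolysis splits glucose into pyruvate, and the pyruvate is then either reduced to lactate and exported or passed to the pyruvate dehydrogenase (PDH) complex and oxidised in the mitochondrion. Glucose transporters and hexokinases set the entry of sugar, the chain from aldolase to pyruvate kinase makes pyruvate, the lactate dehydrogenases interconvert pyruvate and lactate, and the monocarboxylate transporters carry lactate across the membrane with basigin (BSG) as their partner. PDH kinases (PDK1 to PDK4) shut the PDH complex by phosphorylation and the phosphatase PDP1 reopens it. The oviduct epithelium secretes into the fluid that surrounds the early embryo, and pyruvate and lactate are known substrates of that fluid.

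The genes of this pathway were taken by symbol from the deposited table of read counts. Of 35 symbols listed, 33 had a row among the 31903 genes of the table, and PGK1 and PKM2 are not analysed here. GAPDH was listed at 0 in all 56 libraries and was in no test, so a statement on it cannot be made. SLC2A3, ENO2 and SLC16A1 had median counts of only 4, 8.5 and 8, and each failed the filter on low counts in some comparisons, as did SLC16A3 in 2 comparisons of the ampulla. The other 29 genes had a median count of 19.5 or more. No length per transcript was at hand, so levels are compared between groups of samples for 1 gene at a time and never between genes.

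The samples were epithelial cells scraped from the oviducts of Holstein cattle on Day 3 after a synchronised estrus, when a fresh corpus luteum (CL) marks the side that ovulated. There were 5 nulliparous heifers, 5 post-partum non-lactating cows that were never milked after calving and 4 post-partum lactating cows, the cows at 60 days after calving, and no animal was inseminated. Each animal gave 4 libraries, from the ampulla and the isthmus (the segments next to the ovary and next to the uterus) of the oviducts ipsilateral and contralateral to the CL, which makes 12 conditions and 56 libraries. Each animal is named by a letter within its metabolic group, from A to E, or to D in lactating cows.

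Counts on genes ranged from 1901454 to 6836850 per library. Levels are given as CPM (counts scaled to the effective size of each library, with 1 set of TMM factors over the 56 libraries). Depth was 1901454 to 5274847 (median 4382812) in the contralateral isthmus and 3714419 to 6836850 (median 5260092) in the ipsilateral isthmus. The 5 epithelial and 6 ciliated markers were detected in all 56 libraries, whereas HBB and HBA were at 0 in every library and of 7 smooth muscle markers ACTG2, CNN1 and TAGLN were at 0 in 35, 44 and 45 libraries, MYH11 in 5, and ACTA2, DES and SYNPO2 in none. Genes at 0 cannot show that blood or muscle was absent, since GAPDH too was at 0 in all 56 libraries. MYH11 reached 87.3 CPM. In 3 isthmus libraries, those of non-lactating cow C and heifer C on the contralateral side and of heifer A on the ipsilateral side, OVGP1 (oviductal glycoprotein, a secretory marker) was at 37.4 to 152 CPM, against 2019 to 18681 CPM in the other isthmus libraries. Among ipsilateral ampulla libraries, lactating cow B's number stands on 1 labelled non-lactating and non-lactating cow C's number on 1 labelled lactating. Each library was correlated with the mean deviation of an animal's other libraries from the group means, over the genes that varied most between animals. The library with lactating cow B's number correlated at 0.81 with non-lactating cow C, against -0.098 for its own number. That with non-lactating cow C's number correlated at 0.92 with lactating cow B, against -0.17. The library of heifer B had its closest match in non-lactating cow B (0.67 against 0.27 for its own number) and that of non-lactating cow B in heifer B (0.54 against 0.52). The column names decided the group of each, and results without these libraries are given where a call changed. Fits that left out an animal also went by the number in the column name. Where such a fit holds the ipsilateral ampulla, leaving out lactating cow B or non-lactating cow C may have dropped libraries of both cows.

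Side of the CL was compared first, in the isthmus, where 1 edgeR quasi-likelihood test was run in each metabolic group and genes were called at a Benjamini-Hochberg adjusted p under 0.05. This test did not pair the 2 libraries of an animal, and calls that changed with the animal as a block are given further down. In heifers 14 of 29 tested pathway genes were DEGs, a share of 48.3%, beside 10% of all genes tested (5.71% higher and 4.34% lower ipsilaterally). Of these, 13 were higher on the ipsilateral side and 1, PDK4, was lower. In non-lactating cows 7 of 30 were DEGs, all higher ipsilaterally, a share of 23.3% beside 5.11% of all genes (2.94% higher and 2.17% lower). In lactating cows 2 of 31, ALDOA and BSG, were DEGs and both were higher, beside 0.187% of all genes (0.144% higher and 0.0432% lower). The pathway genes and the gene lists below were chosen with earlier results of these data known. Their shares, here and below, thus describe the lists and are no test of the pathway. The median log2 fold change of the tested pathway genes was 0.46, 0.32 and 0.23 in the same order, and over all genes it was -0.015, 0.0057 and -0.00093. In bulk samples of this kind, a larger share of cells that express a gene and more RNA per cell cannot be told apart.

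ALDOA (aldolase A, which splits fructose bisphosphate into 2 trioses) was at 282, 397, 403, 451 and 498 CPM in the ipsilateral isthmus of the 5 heifers and at 139.7, 155, 172, 195 and 236 CPM on the contralateral side. Non-lactating cows had 208, 309, 326, 385 and 414 CPM against 141, 154, 162, 181 and 202, and lactating cows 269, 279.8, 286 and 314 CPM against 142, 144, 149 and 169. In no metabolic group did the sides overlap, and the ipsilateral library was the higher one in 14 of 14 animals. The log2 fold change was 1.17 (SE 0.17, adjusted p = 0.0056) in heifers, 0.97 (SE 0.17, adjusted p = 0.0083) in non-lactating cows and 0.94 (SE 0.10, adjusted p = 0.010) in lactating cows. ALDOC, the other aldolase, rose with a log2 fold change of 0.64 (SE 0.19, adjusted p = 0.0497) in heifers, and in non-lactating and lactating cows its values were 0.74 and 0.71 with adjusted p of 0.251 and 0.507. The call in heifers was kept only without the ipsilateral library of heifer D among 10 fits that each left out a library.

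TPI1 (triosephosphate isomerase, which interconverts the trioses) was at 101, 112, 127, 131 and 149.6 CPM ipsilaterally and at 68.5, 68.9, 76.8, 80.3 and 81.6 CPM contralaterally in heifers. In non-lactating cows it was at 75.9, 129, 134, 177 and 205 CPM against 68.9, 69.2, 69.5, 76.3 and 80.7, so that 1 ipsilateral library lay within the contralateral range. In lactating cows it was at 79.4, 94.3, 97.9 and 115 CPM against 57.8, 62.1, 66.0 and 67.3. The log2 fold change was 0.71 (SE 0.11, adjusted p = 0.0060), 0.99 (SE 0.21, adjusted p = 0.020) and 0.62 (SE 0.13, adjusted p = 0.107), the last not called by edgeR. In non-lactating cows the call was lost without the ipsilateral library of cow D (adjusted p = 0.052).

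ENO1 (enolase) was at 157, 187, 227, 249 and 250.0 CPM in the ipsilateral isthmus of heifers and at 104, 104, 117, 118 and 139.8 CPM contralaterally. It was at 159, 193, 223, 235 and 279 CPM against 112, 114, 115, 119 and 128 in non-lactating cows and at 147, 149, 182 and 183 CPM against 97.3, 118, 121 and 127 in lactating cows. Every ipsilateral library was above every contralateral library over all 28 libraries of the isthmus. The log2 fold change was 0.87 (SE 0.14, adjusted p = 0.0060) in heifers, 0.89 (SE 0.14, adjusted p = 0.0045) in non-lactating cows and 0.52 (SE 0.13, adjusted p = 0.131) in lactating cows.

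PKM (pyruvate kinase, the step that yields pyruvate) was at 196, 204, 207, 239.5 and 240.3 CPM against 136, 154, 157, 159 and 179 in heifers and at 176, 199, 201, 225 and 246 CPM against 109.6, 127, 133, 147 and 157 in non-lactating cows. The sides did not overlap in either group, and log2 fold changes were 0.46 (SE 0.10, adjusted p = 0.015) and 0.64 (SE 0.13, adjusted p = 0.015). In lactating cows PKM was at 153, 169, 192 and 241 CPM against 129, 137, 154 and 161, and this overlapping difference of 0.39 (SE 0.15, adjusted p = 0.342) was not called. GPI (glucose phosphate isomerase, an early step) was at 105, 114, 129, 136 and 139 CPM against 70.9, 77.9, 80.5, 96.8 and 99.1 in heifers. It was at 89.8, 127, 134, 138 and 146 CPM against 69.2, 69.8, 74.5, 77.1 and 84.7 in non-lactating cows and at 91.9, 100.2, 108 and 118 CPM against 64.7, 70.5, 77.9 and 84.0 in lactating cows. No group of GPI values overlapped between sides. Its log2 fold change was 0.54 (SE 0.12, adjusted p = 0.017), 0.77 (SE 0.13, adjusted p = 0.0078) and 0.50 (SE 0.12, adjusted p = 0.142), with no call by edgeR in lactating cows.

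PGM1 and PGM5 belong to the phosphoglucomutase family. PGM1 interconverts glucose 1-phosphate and glucose 6-phosphate, while PGM5 is known as a junction protein without that activity. PGM5 was at 7.66, 8.15, 12.6, 16.1 and 25.9 CPM ipsilaterally and at 3.46, 5.38, 6.77, 6.81 and 7.91 CPM contralaterally in heifers, and at 10.2, 16.03, 16.8, 19.6 and 23.4 CPM against 2.98, 4.38, 5.24, 5.74 and 13.9 in non-lactating cows. The sides overlapped by 1 library in each of these groups, and the log2 fold changes were 1.20 (SE 0.34, adjusted p = 0.044) and 1.53 (SE 0.36, adjusted p = 0.031). Of 10 fits that each left out a library, the call was lost in 8 in heifers, all but those without the ipsilateral library of heifer A or D, and in 7 in non-lactating cows, all but those without the ipsilateral library of cow A or E or the contralateral library of cow B. It was also lost in non-lactating cows without the library of low OVGP1 (adjusted p = 0.069). In lactating cows PGM5 was at 5.63, 6.54, 7.48 and 8.12 CPM against 4.11, 5.02, 6.37 and 7.46, a difference of 0.28 (SE 0.27, adjusted p = 0.752).

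BSG, which escorts the lactate transporters to the membrane and has other partners too, was at 1115, 1553, 1966, 2004 and 2271 CPM in the ipsilateral isthmus of heifers and at 497, 679, 689, 714 and 1221 CPM contralaterally. Non-lactating cows had 713, 773, 801, 896 and 1075 CPM against 396, 473, 522, 557 and 699, and lactating cows 857, 876, 915 and 1128 CPM against 380.2, 469, 519.7 and 547. Heifers thus overlapped through 1 library a side, and the cow groups did not overlap. The log2 fold change of BSG was 1.22 (SE 0.24, adjusted p = 0.0100) in heifers, 0.69 (SE 0.16, adjusted p = 0.026) in non-lactating cows and 0.99 (SE 0.15, adjusted p = 0.036) in lactating cows. In lactating cows the call of ALDOA was lost without the contralateral library of cow A or of cow D (adjusted p = 0.051 to 0.053), and that of BSG was lost in 7 of the 8 fits that left out a library, all but that without the ipsilateral library of cow A. In non-lactating cows BSG was not called without the contralateral library of cow A, D or E or the ipsilateral library of cow C. With the animal as a block, 4 pathway genes were called in lactating cows, beside a share of all genes not reported here. These were SLC16A3 (adjusted p = 0.046) and TPI1 (adjusted p = 0.046) beside ALDOA and BSG. DESeq2 called 6 there, ENO1, GPI, SLC16A3 and TPI1 beside ALDOA and BSG, and 2.62% of all genes.

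**Figure D1:**
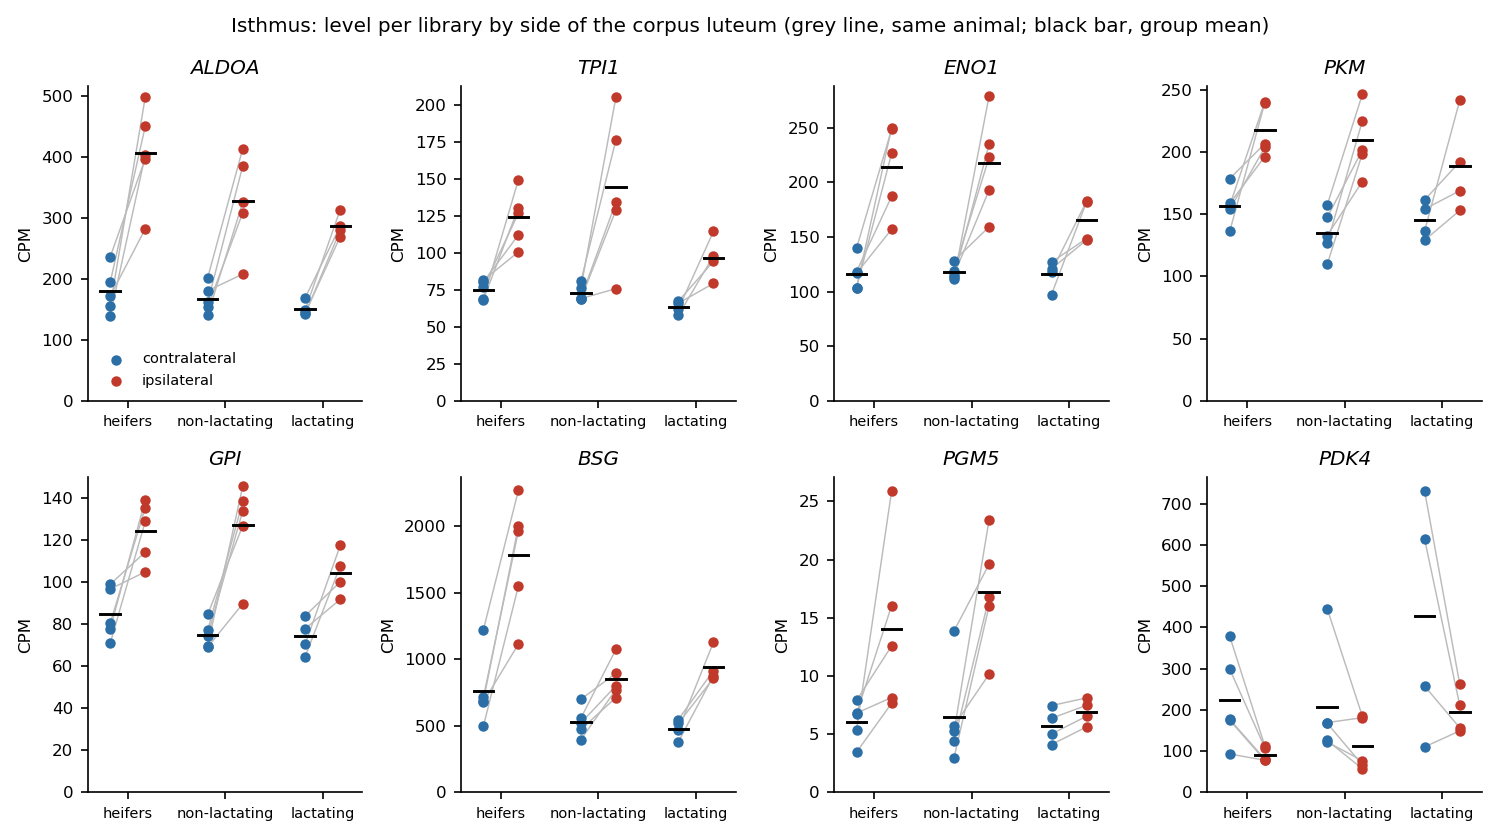
Levels in CPM of 8 pathway genes in each isthmus library, by metabolic group (horizontal axis) and by side of the CL (blue contralateral, red ipsilateral). Grey lines join the libraries of an animal and black bars are group means. ALDOA, TPI1, ENO1, PKM, GPI, BSG and PGM5 were higher ipsilaterally in 14 of 14 animals, and PDK4 in 2 of 14. The share of all genes higher in 14 of 14 animals was not counted.

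PDK4, the PDH kinase best known for its rise in fasting and fat oxidation, went the other way. In heifers it was at 77.9, 78.0, 80.8, 109 and 113 CPM in the ipsilateral isthmus and at 93.2, 175, 177, 299 and 378 CPM contralaterally, a log2 fold change of -1.29 (SE 0.30, adjusted p = 0.020). In non-lactating cows it was at 57.5, 66.9, 77.2, 181 and 185 CPM against 122, 126, 168, 169 and 446, and in lactating cows at 149, 157, 211 and 262 CPM against 111, 258, 613 and 730.0. All 3 groups overlapped between sides, and PDK4 was lower ipsilaterally in 12 of 14 animals. The differences in cows of -0.87 (SE 0.42, adjusted p = 0.249) and -1.13 (SE 0.49, adjusted p = 0.396) were not called by edgeR. With the animal as a block PDK4 was called in non-lactating cows (-0.86, SE 0.19, adjusted p = 0.024). PDHB, a subunit of the first enzyme of the PDH complex, was at 67.5, 92.8, 99.99, 121 and 121 CPM against 56.1, 57.3, 60.1, 60.1 and 63.5 in heifers, with no overlap and a log2 fold change of 0.75 (SE 0.15, adjusted p = 0.0100). The remaining heifer DEGs, all higher ipsilaterally, were LDHB (0.62, SE 0.15), which favours the turning of lactate into pyruvate, PGAM1 (0.53, SE 0.12), a mutase of the lower chain, and the PDH complex subunits DLAT (0.36, SE 0.090) and DLD (0.35, SE 0.094), with adjusted p of 0.021, 0.019, 0.027 and 0.035. Leaving out a library ended the heifer call of PDK4 (without heifer C ipsilaterally or heifer E contralaterally) and of PGAM1 (without heifer E contralaterally). For LDHB 4, for DLAT 6 and for DLD 8 of 10 such fits ended it, among them those without heifer A contralaterally and heifer C ipsilaterally. ALDOA, BSG, ENO1, GPI, PDHB, PKM and TPI1 were called in each of the 10 fits. Without the low-OVGP1 libraries of heifers A and C, ALDOC, DLAT and LDHB were no longer called. A single fit of all isthmus libraries also ended the heifer calls of PDK4 (adjusted p = 0.064) and ALDOC (0.213), and no filter on low counts ended those of ALDOC (0.070) and DLD (0.054).

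When the 28 isthmus libraries were fitted together and the side effects of the 3 metabolic groups averaged, 22 of 32 tested pathway genes were DEGs, a share of 68.8%, beside 27.2% of all genes (14.3% higher and 12.9% lower). There were 19 higher and 3 lower genes on the ipsilateral side. The median log2 fold change was 0.32 over the pathway genes and -0.015 over all genes. Whether the side effect depended on metabolic group was tested too, and a difference was called for 0 of 32 pathway genes by the same edgeR test, with 0 at an unadjusted p under 0.05 and 0 by DESeq2, beside 0% of all genes at the adjusted and 2.05% at the unadjusted threshold.

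Among transporters, SLC2A1 (the glucose transporter GLUT1) had values of 52.1 to 91.3 CPM (median 72.4) ipsilaterally and 44.4 to 74.0 CPM (median 56.2) contralaterally, a log2 fold change of 0.29 (SE 0.086, adjusted p = 0.014). SLC16A3 (MCT4, a lactate exporter) spanned 7.66 to 34.9 CPM (median 13.7) against 2.06 to 15.6 CPM (median 8.02), a log2 fold change of 0.86 (SE 0.23, adjusted p = 0.0067), and was higher ipsilaterally in 12 of 14 animals. SLC16A1 (MCT1) was not called (0.22, SE 0.31, adjusted p = 0.640), at medians of 1.62 CPM on both sides.

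Of the entry steps, HK2 (the inducible hexokinase) spanned 10.7 to 29.7 CPM (median 19.0) against 1.95 to 28.4 CPM (median 12.4), with a log2 fold change of 0.59 (SE 0.20, adjusted p = 0.028), higher in 10 of 14 animals. HK1, the hexokinase of most tissues, had medians of 72.9 and 63.9 CPM and was not called (0.060, SE 0.070, adjusted p = 0.573). The liver-type phosphofructokinase PFKL rose by 0.37 (SE 0.081, adjusted p = 0.0013), whereas the muscle type PFKM (-0.13, SE 0.14, adjusted p = 0.529) and the platelet type PFKP (0.29, SE 0.17, adjusted p = 0.224) were not called. The phosphoglucomutase PGM1 was not called (-0.062, SE 0.075, adjusted p = 0.585). Its relative PGM5, known as a junction protein without that activity and so not an entry step, rose by 1.003 (SE 0.21, adjusted p = 7.3e-04).

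Each tested step of the chain below phosphofructokinase had a gene that rose. Beside ALDOA (1.03, SE 0.096, adjusted p = 6.9e-08), TPI1 (0.77, SE 0.099, adjusted p = 3.5e-06), ENO1 (0.76, SE 0.082, adjusted p = 4.9e-07) and PKM (0.50, SE 0.073, adjusted p = 1.9e-05), these were ALDOC (0.69, SE 0.19, adjusted p = 0.0085) and PGAM1 (0.44, SE 0.094, adjusted p = 0.0010). The neuronal enolase ENO2, at medians of 1.87 and 2.58 CPM, was not called (-0.56, SE 0.33, adjusted p = 0.216). ALDOA, ALDOC, TPI1, ENO1, PKM, GPI, BSG, PGM5 and DLD were each higher ipsilaterally in 14 of 14 animals. The share of all genes that were higher in 14 of 14 animals was not counted. In ALDOA the difference within an animal ran from 0.20 in non-lactating cow E to 1.67 in heifer A on the log2 scale.

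Both lactate dehydrogenase genes rose. LDHA, the form that favours lactate, spanned 3.02 to 17.8 CPM (median 12.1) ipsilaterally and 4.79 to 10.1 CPM (median 7.96) contralaterally, a log2 fold change of 0.53 (SE 0.19, adjusted p = 0.038), and LDHB 49.9 to 84.0 CPM (median 58.5) against 39.4 to 58.8 CPM (median 49.7), a log2 fold change of 0.36 (SE 0.086, adjusted p = 0.0029). Each was higher ipsilaterally in 11 of 14 animals. The log2 ratio of LDHA to LDHB in the isthmus differed between sides by 0.19 in heifers, 0.38 in non-lactating cows and -0.29 in lactating cows, with two-sided exact permutation p of 0.556 (n = 5 and 5), 0.206 (n = 5 and 5) and 0.714 (n = 4 and 4).

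In the PDH complex, 4 of 5 genes rose. PDHB changed most (0.56, SE 0.11, adjusted p = 4.5e-04), at 37.9 to 121 CPM (median 80.8) against 39.3 to 67.4 CPM (median 59.3). DLD (0.37, SE 0.057, adjusted p = 3.2e-05), DLAT (0.24, SE 0.067, adjusted p = 0.0076) and PDHA1 (0.21, SE 0.069, adjusted p = 0.028) rose by less, and PDHX, the binding protein for DLD, was not called (0.089, SE 0.082, adjusted p = 0.460). The regulators split. PDK4 had a log2 fold change of -1.10 (SE 0.26, adjusted p = 0.0028), at 57.5 to 262 CPM (median 111) against 93.2 to 730.0 CPM (median 176), and PDK1, a kinase known as a target of hypoxia signalling, had a log2 fold change of -0.30 (SE 0.093, adjusted p = 0.018), at 63.6 to 118 CPM (median 78.8) against 72.6 to 126 CPM (median 104). The kinases PDK2 and PDK3 were not called (0.025 and -0.039, adjusted p = 0.851 and 0.770). PDP1, the phosphatase that opposes the kinases, also had a negative log2 fold change (-0.23, SE 0.078, adjusted p = 0.026). Without the 3 isthmus libraries of low OVGP1, 20 of the 22 genes were DEGs, with LDHA (adjusted p = 0.069) and PDP1 (adjusted p = 0.113) no longer called, and with no filter on low counts PDP1 was not called either (adjusted p = 0.070). Left-out animals also ended the calls of LDHA (non-lactating A, C or D, heifer C or E, lactating A or D), PDP1 (heifer A, C or E, lactating A or B, non-lactating C or E), PDHA1 (heifer B, lactating B, non-lactating A), and HK2 and PDK1 (lactating C or non-lactating E), and the other 17 were called in each of 14 such fits.

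**Figure D2:**
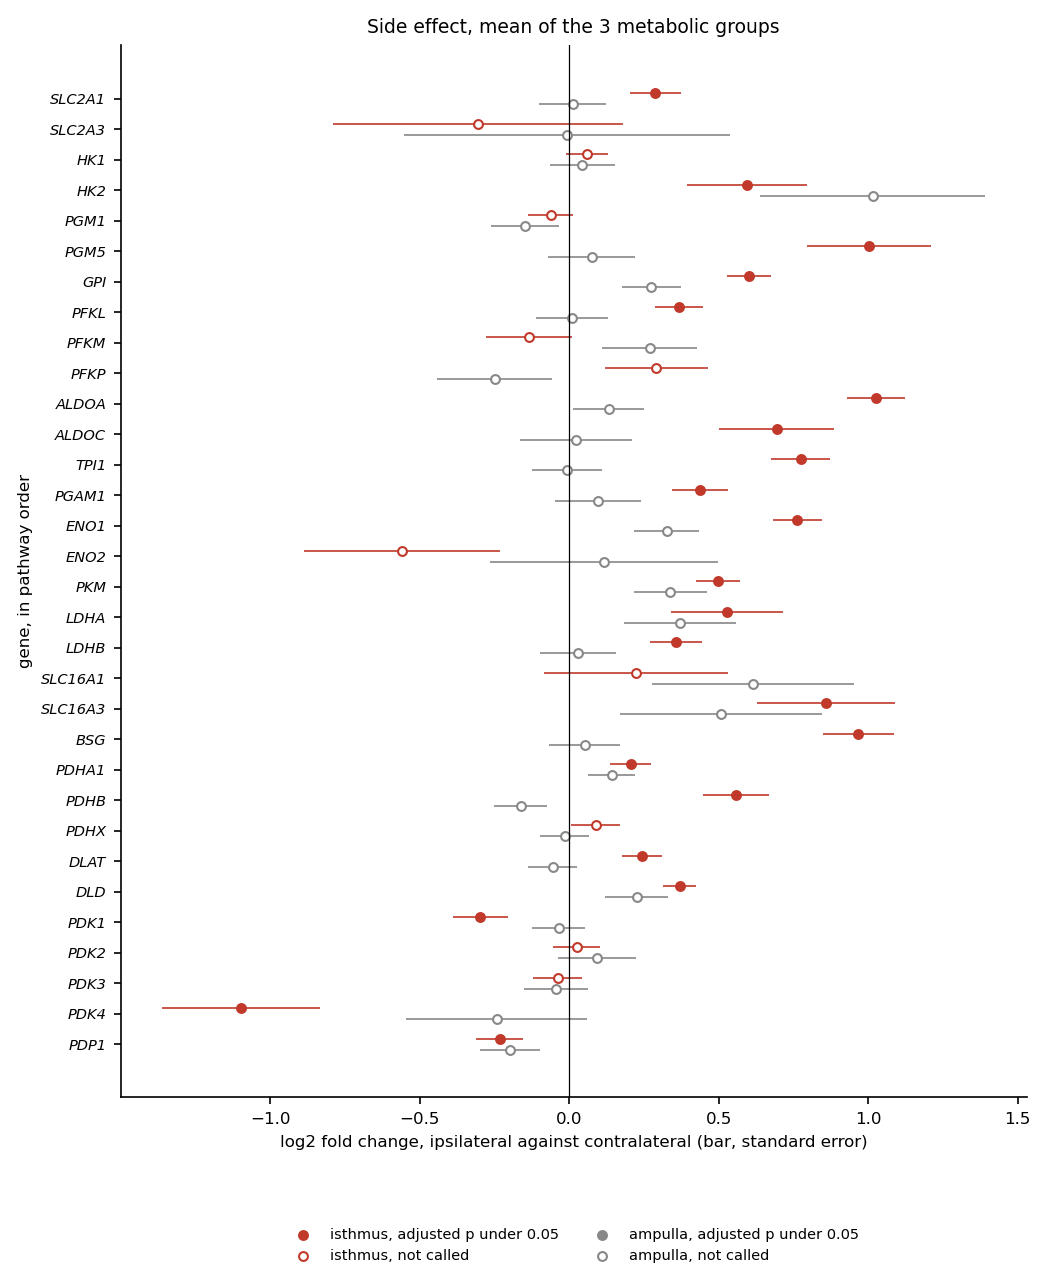
Log2 fold change of ipsilateral against contralateral libraries, mean of the 3 metabolic groups, for 32 pathway genes in pathway order from glucose transport to PDH regulation (red isthmus, grey ampulla, bars are standard errors, filled points have an adjusted p under 0.05). In the isthmus 22 genes are filled, ALDOA at 1.03 and PDK4 at -1.10 being the farthest on each side, and in the ampulla none is filled.

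Among markers of cell types, epithelial genes and an endothelial gene moved with side in the isthmus. Of 5 epithelial markers 4 were called in the mean over groups, KRT8, KRT18 and CDH1 higher and CLDN4 lower ipsilaterally. KRT18 had a log2 fold change of 0.43 (SE 0.066, adjusted p = 2.7e-05) and CLDN4 one of -0.53 (SE 0.12, adjusted p = 0.0015). The summed level of the 5 epithelial markers was 1021 to 1558 CPM (median 1211) ipsilaterally and 957 to 1201 CPM (median 1099) contralaterally, and none was at 0 in any library. The 6 ciliated markers summed to 847 to 1437 CPM against 865 to 1318 CPM, with 0 called by edgeR and 2 at an unadjusted p under 0.05, and of the 4 secretory markers 0 were called, also unadjusted. Smooth muscle markers summed to 31.4 to 94.3 CPM against 16.7 to 83.5 CPM with 0 of 4 tested called (1 unadjusted). That gene was MYH11, with a log2 fold change of 0.71 (SE 0.27, adjusted p = 0.0504). Fibroblast markers summed to 9.90 to 105 CPM against 12.2 to 361 CPM with 0 of 6 called (2 unadjusted). Of these, COL1A1, DCN and LUM were at 0 in 25, 24 and 27 of the 56 libraries. The 3 endothelial markers summed to 5.88 to 47.6 CPM against 8.18 to 99.3 CPM, and KDR among them was called, lower ipsilaterally. PECAM1 and VWF were not called (-0.59 and 0.037, adjusted p = 0.116 and 0.928). Leukocyte markers summed to 15.3 to 156 CPM against 16.2 to 117 CPM, and 0 of 5 tested were called, also unadjusted. The part of the epithelial genes, of KDR, of MYH11 and of the lower contralateral depth in these results was not tested.

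In the ampulla the same comparison gave no call for a pathway gene. By edgeR 0 of 30 were DEGs in heifers, 0 of 30 in non-lactating cows and 0 of 29 in lactating cows, and the unadjusted p was under 0.05 for 1, 3 and 1 of them. Of all genes 0%, 0.0947% and 0% were called and 9.2%, 11.1% and 4.26% had an unadjusted p under 0.05. DESeq2 also called 0 in each. In the mean over groups 0 of 32 were called by edgeR and by DESeq2, beside 4.09% of all genes. At the unadjusted threshold there were 5, all higher ipsilaterally, a share of 15.6% that lies below the 18.7% of all genes. These 5 were ENO1 (0.33, SE 0.11), PKM (0.34, SE 0.12), GPI (0.27, SE 0.099), HK2 (1.02, SE 0.38) and DLD (0.23, SE 0.11), with adjusted p of 0.084, 0.116, 0.118, 0.127 and 0.242. ALDOA was at 150.5 to 267 CPM (median 188) ipsilaterally and 134 to 363 CPM (median 166) contralaterally. PKM passed the threshold without the libraries of doubtful identity, HK2 without non-lactating cow A, and ENO1, GPI and PKM without heifer E.

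The side effects of the 2 regions were then tested against each other in 1 fit of the 56 libraries. For 5 of 32 pathway genes the signed log2 fold change between sides was higher in the isthmus, and for none was it lower. That is a share of 15.6%, beside 4.95% of all genes (3.19% higher in the isthmus). The 5 genes were PGM5 (difference 0.92, SE 0.25, adjusted p = 0.023), BSG (0.92, SE 0.17, adjusted p = 0.0011), ALDOA (0.89, SE 0.16, adjusted p = 5.2e-04), TPI1 (0.78, SE 0.16, adjusted p = 0.0024) and PDHB (0.72, SE 0.14, adjusted p = 0.0014). In the ampulla PDHB was lower ipsilaterally in 9 of 12 animals, at a median of 69.4 CPM ipsilaterally and 77.8 CPM contralaterally. Without the libraries of doubtful identity PGM5 was not called (adjusted p = 0.057). Leaving out heifer C, lactating cow B or C or non-lactating cow C or D also ended its call. For ENO1, GPI, PDK4 and PKM the difference between regions was not called by edgeR (adjusted p = 0.059, 0.135, 0.252 and 0.626). DESeq2 called 6 genes, ENO1 beside these 5, and 7.69% of all genes. Between metabolic groups 0 of 32 side effects differed in the ampulla by edgeR, at the adjusted and at the unadjusted threshold, and by DESeq2, beside 0% and 1.15% of all genes.

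Isthmus and ampulla were also compared on each side, over the 3 metabolic groups. On the ipsilateral side 19 of 32 pathway genes were DEGs, 11 higher and 8 lower in the isthmus, a share of 59.4% beside 49.6% of all genes (24.1% higher and 25.5% lower). On the contralateral side there were 21 of 32, with 8 higher and 13 lower, a share of 65.6% beside 42.5% of all genes (21.1% higher and 21.4% lower). The median log2 fold change of the pathway genes was 0.083 ipsilaterally and -0.28 contralaterally. The comparisons use separate libraries of the same animals.

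SLC16A3, the lactate exporter, spanned 7.66 to 34.9 CPM in the ipsilateral isthmus and 1.13 to 5.09 CPM in the ipsilateral ampulla, with no overlap, and its log2 fold change was 2.40 (SE 0.24, adjusted p = 4.2e-09). On the contralateral side it spanned 2.06 to 15.6 CPM against 0.435 to 4.80 CPM, a log2 fold change of 2.05 (SE 0.31, adjusted p = 4.6e-06). SLC16A1 was lower in the ipsilateral isthmus (-0.79, SE 0.32, adjusted p = 0.041) at 0.766 to 3.97 CPM against 0.941 to 7.65 CPM, a call lost in 7 of 14 fits that each left out an animal (without heifer C or E, lactating cow A or non-lactating cow A, B, C or E), without the libraries of low OVGP1 (adjusted p = 0.062) and with no filter on low counts (adjusted p = 0.060), and was not called contralaterally (-0.36, SE 0.34, adjusted p = 0.419). BSG was at 713 to 2271 CPM in the ipsilateral isthmus and 351 to 559.7 CPM in the ipsilateral ampulla, again without overlap, a log2 fold change of 1.43 (SE 0.095, adjusted p = 1.7e-12), and at 380.2 to 1221 against 319 to 916 CPM contralaterally (0.52, SE 0.14, adjusted p = 0.0038).

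At the entry of glucose, SLC2A1 was lower in the isthmus on both sides (-0.57, SE 0.097, adjusted p = 1.8e-05, and -0.83, SE 0.11, adjusted p = 4.2e-07), at medians of 72.4 against 107 CPM ipsilaterally and 56.2 against 104 CPM contralaterally. HK2 was higher in the isthmus on both sides, by 1.24 (SE 0.19, adjusted p = 2.9e-06) and 1.69 (SE 0.38, adjusted p = 6.4e-04), and spanned 10.7 to 29.7 CPM ipsilaterally against 1.69 to 12.02 CPM in the ampulla. Contralaterally it spanned 1.95 to 28.4 CPM in the isthmus and 0 to 9.81 CPM (median 3.52) in the ampulla. The contralateral ranges thus overlapped, and the ampulla values were low. HK1 was called on neither side (adjusted p = 0.333 and 0.652). The phosphofructokinases went opposite ways, PFKL being higher in the isthmus (0.77, SE 0.10, adjusted p = 4.1e-07, and 0.43, SE 0.11, adjusted p = 0.0017) and PFKM lower (-0.96, SE 0.14, adjusted p = 2.1e-06, and -0.54, SE 0.17, adjusted p = 0.011). Ipsilaterally PFKL was at 67.4 to 137 CPM in the isthmus and at 34.0 to 67.4 CPM in the ampulla, so that the regions met at their edges without overlap.

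Further down the pathway, LDHA was lower in the isthmus on both sides (-0.75, SE 0.20, adjusted p = 0.0032, and -0.89, SE 0.17, adjusted p = 1.2e-04), at medians of 12.1 against 17.2 CPM and 7.96 against 13.8 CPM. PDK4 was higher in the isthmus on both sides, by 0.70 (SE 0.25, adjusted p = 0.022) ipsilaterally and 1.57 (SE 0.32, adjusted p = 1.8e-04) contralaterally, the former lost without heifer B, lactating cow B or non-lactating cow A, and so were PDP1 (0.57, SE 0.089, and 0.62, SE 0.088) and PDHX (0.43, SE 0.077, and 0.35, SE 0.083). ALDOA was higher in the ipsilateral isthmus than in the ampulla (0.79, SE 0.11, adjusted p = 6.1e-07) and was not called contralaterally (-0.090, SE 0.11, adjusted p = 0.560). TPI1 and PDHB were higher in the isthmus ipsilaterally (0.42, SE 0.11, adjusted p = 0.0030, and 0.28, SE 0.10, adjusted p = 0.029) and lower in it contralaterally (-0.35, SE 0.11, adjusted p = 0.010, and -0.43, SE 0.092, adjusted p = 3.8e-04). The ipsilateral call of PDHB was lost without the 3 libraries of low OVGP1, without those of doubtful identity and with the animal as a block (adjusted p = 0.050, 0.060 and 0.089), and also without heifer E or non-lactating cow C or D. PGM5 was lower in the contralateral isthmus (-0.82, SE 0.20, adjusted p = 0.0015) and did not pass ipsilaterally (0.087, SE 0.16, adjusted p = 0.671).

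**Figure D3:**
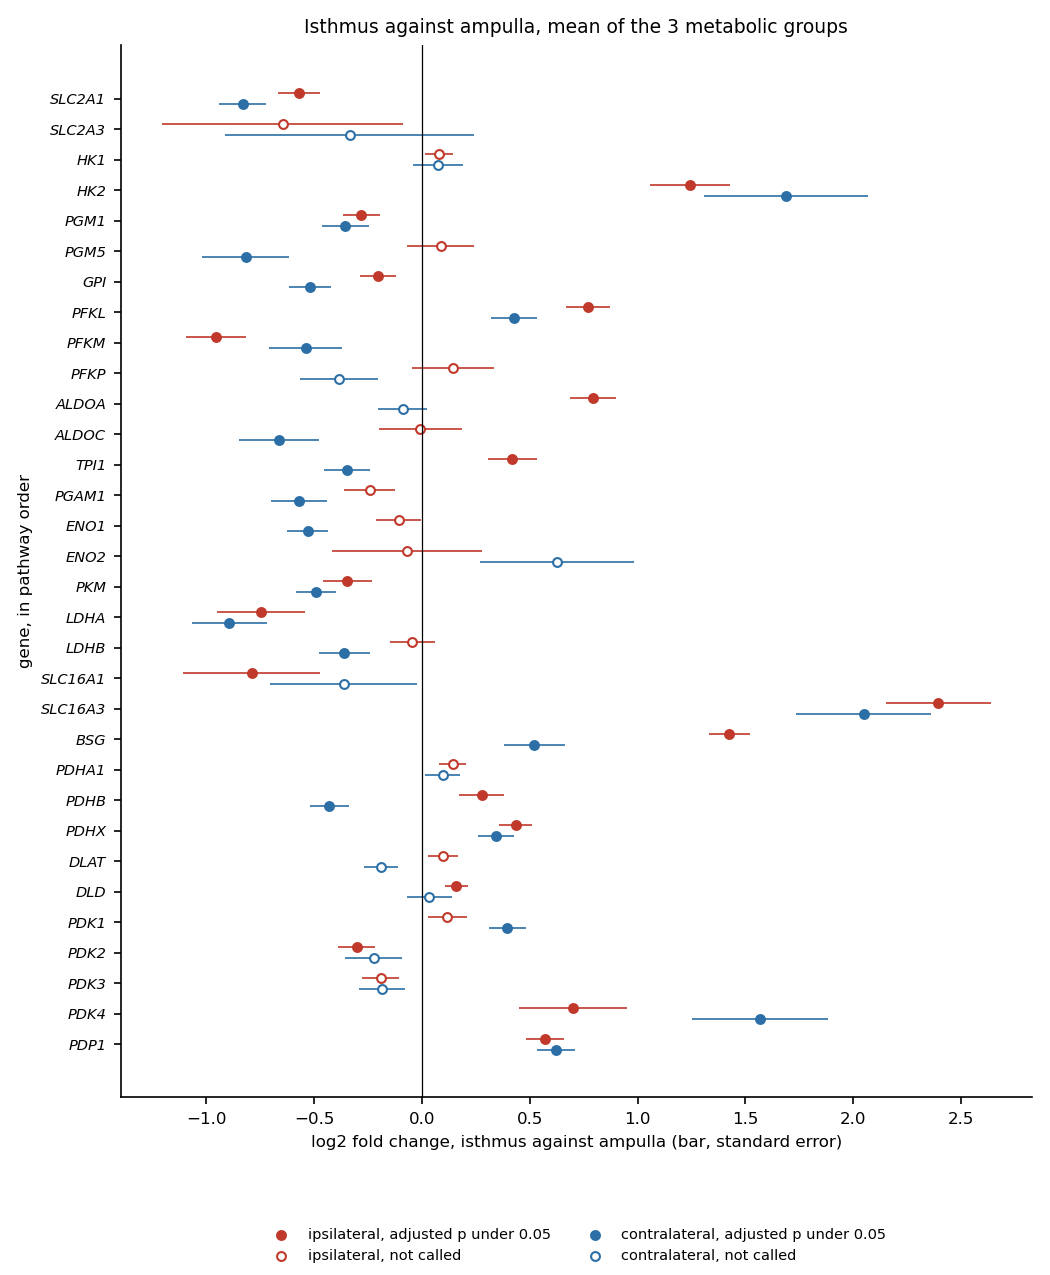
Log2 fold change of isthmus against ampulla libraries for 32 pathway genes on the ipsilateral (red) and contralateral (blue) side, mean of the 3 metabolic groups, with standard errors. Filled points have an adjusted p under 0.05, 19 ipsilaterally and 21 contralaterally. SLC16A3, at 2.40 and 2.05, lies farthest to the right.

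Cell type markers differed between the regions as well. All 6 ciliated markers were lower in the isthmus on both sides, summing to 847 to 1437 CPM ipsilaterally against 1270 to 1704 CPM in the ampulla, and to 865 to 1318 CPM against 1388 to 2031 CPM contralaterally. Of 5 epithelial markers 4 and 3 were higher, of 4 secretory markers 3 and 2 were lower, and KDR and PECAM1 of the 3 endothelial markers were lower. Of 4 smooth muscle markers tested, MYH11 was higher and 3 lower ipsilaterally, and MYH11 was higher and 1 lower contralaterally. MYH11 averaged 48.8 CPM in the isthmus against 1.34 CPM in the ampulla ipsilaterally, and 30.3 against 0.968 CPM contralaterally. Its log2 fold changes were 5.12 (SE 0.32) and 4.86 (SE 0.39). Smooth muscle markers summed to 31.4 to 94.3 against 13.8 to 35.5 CPM ipsilaterally, and to 16.7 to 83.5 against 9.91 to 33.7 CPM contralaterally. Of the fibroblast markers DCN and LUM were higher and 1 lower on each side, LUM with log2 fold changes of 7.02 and 7.49. CD163 of the 6 leukocyte markers was lower ipsilaterally, and CYP11A1, the 1 granulosa or luteal marker tested there, was higher. Their part in the regional differences was not tested.

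Metabolic status was compared in each of the 4 tissues. Across the 12 comparisons 0 pathway genes were DEGs by edgeR, beside 0% of all genes in 11 of them and 0.0073% in the ipsilateral isthmus for non-lactating cows against heifers. At an unadjusted p under 0.05 the ipsilateral isthmus gave 10 of 31 pathway genes between lactating cows and heifers (1 higher and 9 lower in the cows, beside 10.4% of all genes), 6 of 29 between non-lactating cows and heifers (1 higher and 5 lower, 11.8%) and 6 of 31 between lactating and non-lactating cows (1 higher and 5 lower, 6.26%). DESeq2 called 3 genes in the first, BSG, HK1 and PDK4, 2 in the second, BSG and HK2, and 1 in the third, PGM5, and of all genes it called 1.08%, 1.74% and 0.111%. In the contralateral isthmus 5, 2 and 1 pathway genes had an unadjusted p under 0.05, in the same order, beside 10.7%, 9.18% and 3.94% of all genes. In the ipsilateral ampulla there were 1, 0 and 0 (7.15%, 3.63% and 3.57%) and in the contralateral ampulla 0, 1 and 1 (4.73%, 4.35% and 5.06%), and DESeq2 called 0 in all 9 of these. Lactating cows and non-lactating cows were set against the same heifer libraries. Epithelial marker sums in the ipsilateral isthmus were 1302 to 1507 CPM in heifers. They were 1154 to 1206 CPM in non-lactating and 1021 to 1558 CPM in lactating cows. In the same order, smooth muscle markers summed to 48.7 to 94.3, 39.2 to 80.9 and 31.4 to 81.0 CPM. Fibroblast markers summed to 9.90 to 51.8, 16.9 to 105 and 25.8 to 99.7 CPM. The part of cell types in differences between metabolic groups was not tested.

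HK1, PDK4 and PGM5 are described here because the study's text names them as differentially expressed between metabolic groups in the isthmus. The study found them with DESeq2 in these same libraries. The DESeq2 values and the lack of overlap given below are therefore not independent evidence. In the ipsilateral isthmus HK1 was at 76.4, 78.2, 85.8, 86.9 and 94.5 CPM in heifers, at 59.9, 65.2, 70.8, 74.9 and 79.7 CPM in non-lactating cows and at 56.3, 58.5, 58.5 and 63.3 CPM in lactating cows. Lactating cows and heifers did not overlap, and their log2 fold change was -0.50 (SE 0.10, adjusted p = 0.244 by edgeR and 0.0067 by DESeq2). Against heifers the non-lactating cows differed by -0.25 (SE 0.11, adjusted p = 0.394), and against non-lactating cows the lactating cows differed by -0.25 (SE 0.11, adjusted p = 0.798). On the contralateral side HK1 was at 56.004, 62.3, 64.6, 80.4 and 93.5 CPM in heifers and at 54.3, 60.8, 62.8 and 65.4 CPM in lactating cows, which overlapped.

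The ipsilateral PDK4 values of the heifers, 77.9 to 113 CPM, lay below those of the lactating cows, 149 to 262 CPM. The log2 fold change of lactating cows against heifers was 1.10 (SE 0.19, adjusted p = 0.173 by edgeR and 1.7e-04 by DESeq2). Non-lactating cows spanned both, with 3 libraries between 57.5 and 77.2 CPM and 2 at 181 and 185 CPM, and differed by 0.32 (SE 0.31, adjusted p = 0.766) from heifers and were 0.78 (SE 0.35, adjusted p = 0.798) below lactating cows. In the contralateral ampulla PDK4 averaged 50.1 ± 26.8 CPM (SD, n = 5) in non-lactating and 155 ± 120 CPM (SD, n = 4) in lactating cows, a log2 fold change of 1.64 (SE 0.45, adjusted p = 0.932). Ipsilaterally in the isthmus, PGM5 was at 5.63 to 8.12 CPM in lactating and at 10.2 to 23.4 CPM in non-lactating cows, without overlap (log2 fold change -1.32, SE 0.25, adjusted p = 0.698 by edgeR and 0.0042 by DESeq2), and the difference from heifers was -1.01 (SE 0.35, adjusted p = 0.373).

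BSG had the smallest adjusted p of the pathway, 0.069, when non-lactating cows were set against heifers, with a log2 fold change of -1.05 (SE 0.18) in the ipsilateral isthmus and no overlap between 713 to 1075 CPM and 1115 to 2271 CPM. It passed the threshold without non-lactating cow A and without heifer D. Lactating cows differed from heifers by -0.91 (SE 0.19, adjusted p = 0.244), and on the contralateral side the differences were -0.52 (SE 0.21, adjusted p = 0.517) and -0.67 (SE 0.23, adjusted p = 0.382) for non-lactating and lactating cows. HK2 differed by -0.73 (SE 0.20, adjusted p = 0.190) between non-lactating cows and heifers ipsilaterally.

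**Figure D4:**
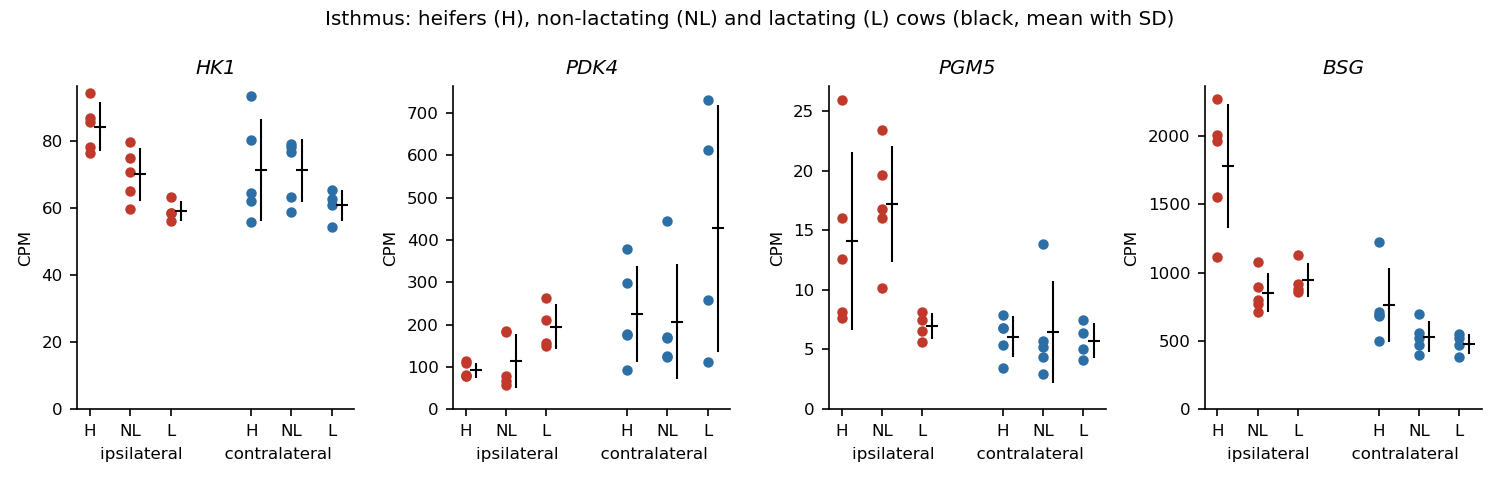
CPM of HK1, PDK4, PGM5 and BSG in the isthmus of heifers (H), non-lactating (NL) and lactating (L) cows, on the ipsilateral (red) and contralateral (blue) side, 1 point per library, with the mean and SD in black. In the ipsilateral isthmus HK1 of lactating cows (56.3 to 63.3 CPM) lies below and PDK4 (149 to 262 CPM) above all heifers, and none of the 4 genes was called by edgeR.

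Other genes of sugar metabolism were counted as lists. Of 37 tested genes of the remaining glycolysis, gluconeogenesis and pyruvate list, 14 were DEGs between sides in the isthmus over the 3 groups, 10 higher and 4 lower ipsilaterally, with a median log2 fold change of 0.078, beside the 27.2% called of all genes in that comparison. Of the called genes the farthest were SLC2A5 (the fructose transporter GLUT5), with a log2 fold change of 1.20 (SE 0.44, adjusted p = 0.044), PGM2L1 (glucose 1,6-bisphosphate synthase, -0.76, SE 0.15, adjusted p = 4.1e-04) and MPC1 (a subunit of the mitochondrial pyruvate carrier, 0.72, SE 0.14, adjusted p = 3.5e-04). Of 7 pentose phosphate genes 4 were called, 3 higher and 1 lower, among them PGD (0.84, SE 0.12, adjusted p = 1.5e-05), which rose from a mean of 95.0 to 172 CPM, PGLS (0.46, SE 0.13, adjusted p = 0.010) and RPIA (-0.53, SE 0.16, adjusted p = 0.013). Of 11 glycogen genes 3 were called, a share near the 27.2% of all genes, and all were higher, among them GYS1 (glycogen synthase, 0.87, SE 0.12, adjusted p = 9.1e-06) and PYGL (a glycogen phosphorylase, 0.42, SE 0.087, adjusted p = 7.4e-04). Of 19 genes of the hypoxia-inducible factor (HIF) pathway 10 were called, 6 higher and 4 lower, including EPAS1 (HIF-2 alpha, 1.22, SE 0.33, adjusted p = 0.0072), DDIT4 (0.82, SE 0.16, adjusted p = 3.5e-04) and EGLN3 (a HIF prolyl hydroxylase, 0.81, SE 0.21, adjusted p = 0.0050).

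In the ampulla the same lists gave 0 of 36, 0 of 7, 0 of 11 and 4 of 18 genes between sides by edgeR (9, 2 and 3 in the first 3 lists at an unadjusted p under 0.05), the last being DDIT4 higher (0.68, SE 0.17, adjusted p = 0.022) and CA9, MXI1 and BNIP3L lower. Of all genes 4.09% were called in that comparison and 18.7% had an unadjusted p under 0.05. PGD (0.91, SE 0.16, adjusted p = 5.2e-04) and GYS1 (0.83, SE 0.19, adjusted p = 0.0059) had a larger side effect in the isthmus than in the ampulla. Between regions, SLC2A5 was at a mean of 17.2 ± 12.6 CPM (SD, n = 14) in the ipsilateral isthmus and 0.239 ± 0.458 CPM (SD, n = 14) in the ampulla. PGD, an enzyme of the pentose phosphate pathway, was higher in the isthmus on both sides (1.30, SE 0.11, adjusted p = 1.2e-10, and 0.40, SE 0.12, adjusted p = 0.0071). Between metabolic groups in the ipsilateral isthmus the 4 lists gave 0 calls in each comparison by edgeR. At an unadjusted p under 0.05 the glycolysis and pyruvate list gave 6 of 34, 4 of 35 and 1 of 34 genes (lactating cows against heifers, non-lactating cows against heifers, and lactating against non-lactating cows), and the other 3 lists at most 2 genes each. In the same order 10.4%, 11.8% and 6.26% of all genes passed that threshold.

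Ratios of paired genes were compared between sides as 21 exact permutation tests on log2 ratios, and none passed after Benjamini-Hochberg adjustment, the smallest adjusted p being 0.278. HK1 to HK2 differed by -1.45, ipsilateral minus contralateral, in the isthmus of lactating cows (raw p = 0.0286, the smallest an exact two-sided test of 4 against 4 allows), at 1.60 ± 0.40 against 3.05 ± 1.23 (SD, n = 4 each). Without the contralateral library of lactating cow C the difference was -0.84. PDK4 to PDP1 differed by -0.85 in the isthmus of heifers (raw p = 0.0397, exact, n = 5 and 5) and by -0.52 and -0.76 in non-lactating and lactating cows (p = 0.286 in each, exact). LDHA to LDHB differed by 0.45 in the ampulla of heifers (raw p = 0.0317, exact, n = 5 and 5), and 0.30 and 0.17 in the cow groups. The ratio of SLC16A1 to SLC16A3 in the isthmus was left out, because SLC16A1 had a median count of 7 there.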

How the data were processed

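RNA of oviduct epithelium was sequenced from stranded libraries. Per the labels and the study's methods, the authors aligned reads to the bovine genome Btau_4.6.1 using TopHat2 version 2.0.13, and HTSeq version 0.6.1 gave the deposited counts per gene, strand-specific and in its strict intersection mode. Alignments to several places (37.4 to 61.3% of each library) were not counted, and genes took 8.66 to 13.7% of alignments, so levels of genes with near-identical copies are uncertain. Rows that name no gene were left out of library sizes and tests.

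The counts of all genes were normalised by TMM and tested with edgeR 4.0.16 in R 4.3.3 (quasi-likelihood F test, filterByExpr with a minimum count of 10, Benjamini-Hochberg adjusted p threshold 0.05). Within a region, ipsilateral and contralateral libraries were tested in each metabolic group, and the 3 metabolic groups in each tissue. Fits of a whole region or side gave the mean of the groups, and a fit of all 56 libraries the difference between regions. SE is the absolute log2 fold change divided by the square root of F. Log2 ratios of paired genes were set against each other with exact permutation tests, two-sided. None of these main tests paired the libraries of an animal.

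Columns were assigned to groups by their names. The number in a column name pairs the libraries of an animal, and deviations from the group means correlated with a median of 0.39 over 14 pairs in the isthmus (-0.021 to 0.55) and 0.27 over 12 in the ampulla (0.011 to 0.67). No 2 libraries of a group agreed within sampling noise.

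The members and the gene lists (other glycolysis and pyruvate, pentose phosphate, glycogen and HIF genes, and cell type markers) were chosen with earlier results of these data known. Members called were named by size of log2 fold change, up to 12 per comparison, with HK1, PDK4 and PGM5 named between metabolic groups because the study names them. Up to 3 called genes of each other list were named. The values of members not called were added after they were seen. Some genes are not reported here. DESeq2 1.42.0, RLE size factors, no filter, the animal as a block, a single fit per region, leaving out each library or animal and leaving out libraries of doubtful identity were the alternatives, and leaving out isthmus libraries of low OVGP1 (under 1000 CPM) was chosen after seeing the data. The tests were tested on simulated data. No genome or sequence was used here, so no positions are given.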

Additional observations from a re-analysis of the deposited data

Results flagged for a closer look

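In 5 of the 138 groups of isthmus libraries examined (23 genes of the pathway), 1 library lay far from the others of its group by Dixon's test, which chance gives in about 1 of 20 groups. LDHA was at 5.74 CPM in the contralateral isthmus of non-lactating cow E, against 8.76 to 9.76 CPM in the other 4 cows. LDHB was at 40.9 CPM in that of lactating cow C, against 52.4 to 54.1 CPM. PDK4 was at 446 CPM in that of non-lactating cow A, against 122 to 169 CPM. PGM5 was at 13.9 CPM in that of non-lactating cow B, against 2.98 to 5.74 CPM. SLC16A3 was at 34.9 CPM in the ipsilateral isthmus of non-lactating cow A, against 7.66 to 15.3 CPM.

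For 5 genes the effect of side differed between the regions, with a larger log2 fold change in the isthmus than in the ampulla by edgeR's test of the difference. The difference was 0.92 for PGM5 (adjusted p = 0.023), 0.92 for BSG (adjusted p = 0.0011), 0.89 for ALDOA (adjusted p = 5.2e-04), 0.78 for TPI1 (adjusted p = 0.0024) and 0.72 for PDHB (adjusted p = 0.0014).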

How the results depend on the processing

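By DESeq2 the number of pathway genes called was 6 for side in the lactating isthmus (ENO1, GPI, SLC16A3 and TPI1 beside ALDOA and BSG), and in the ipsilateral isthmus it was 3 for lactating cows against heifers, 2 for non-lactating cows against heifers and 1 for lactating against non-lactating cows. Non-lactating cows against heifers gave 1 (BSG) with no filter on low counts and 1 (BSG) in a single fit of the region, and lactating against non-lactating cows in the contralateral ampulla gave 1 (PDK4) with no filter. The mean side effect in the ampulla gave 1 (PKM) without libraries of doubtful identity. With the animal as a block 4 genes were called in the isthmus of lactating cows. Apart from DESeq2, the share of all genes called under these alternatives is not reported here. The block ended the call of PDHB between regions ipsilaterally and added those of PFKL in the isthmus of heifers (adjusted p = 0.026), PDK4 in that of non-lactating cows (0.024), and between regions PGAM1 ipsilaterally (0.0050) and PFKP contralaterally (0.033). With no filter the ipsilateral call of GPI between regions was lost (0.089). Leaving out 1 library or animal at a time gave 8 to 15 called genes for side in the isthmus of heifers (8 without heifer C ipsilaterally or heifer E contralaterally, 9 without heifer E ipsilaterally or heifer A contralaterally), 5 to 10 in non-lactating cows, 0 to 2 in lactating cows, 0 to 3 for the mean side effect in the ampulla and 0 to 1 in the ipsilateral isthmus for non-lactating cows against heifers. The ratios had no call, and 4 changed sign within those fits: HK1 to HK2 in the isthmus of heifers (-0.22 to 0.16), LDHA to LDHB in the isthmus of lactating cows (-0.65 to 0.17), PDK4 to PDP1 in the ampulla of lactating cows (-0.67 to 0.22) and SLC16A1 to SLC16A3 in the ampulla of heifers (-0.66 to 0.21). No pathway gene called in a main fit changed direction under an alternative that was run. Nor did HK1, PDK4 and PGM5 between metabolic groups in the ipsilateral isthmus. The direction of the other genes named was not compared. The cause of these changes was not tested. Low counts limit SLC2A3, ENO2 and SLC16A1 in every comparison, and SLC16A3 and HK2 in the ampulla.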
